A study of Mus musculus with 5 samples.

Results

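Genes that code for secreted or surface proteins of the acute-phase and innate defense response were followed through single-cell RNA sequencing of mouse mammary tumors: Saa1, Saa2, Saa3, Lcn2, Ltf, Chil1, Cp, Clu, Pigr and Hp. They were chosen by symbol, and all 10 were found among the 31053 genes of every matrix. The mice were MMTV-PyMT animals on the FVB background, which carry the polyoma virus middle T oncogene under a mouse mammary tumor virus promoter active in mammary epithelium, so tumors of both groups had this transgene. From 7 weeks of age they received B20-4.1.1, an antibody that blocks mouse VEGF-A, or its isotype control IgG2a, at 5 mg/kg for 6 weeks. The isotype group held 6 tumors in 2 pools, and the B20-4.1.1 group 9 tumors in 3 pools, with 3 tumors of 3 mice in each pool. Tumors are named by pool and tumor, so that isotype 2.3 is the third tumor of isotype pool 2. No pool mixed the treatments, so a difference between pools cannot be told apart from one between treatments. Cells were sorted for viability before capture, and the values below are counts of unique molecular identifiers (UMIs), each standing for 1 captured transcript.

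In an acute-phase response, cytokines such as IL-6, IL-1 and TNF switch on secreted defense proteins through STAT3, NF-kB and C/EBP factors. The liver is the best known source, but mammary epithelium makes many of the same proteins and releases some of them into milk. Saa1, Saa2 and Saa3 code for serum amyloid A proteins, small apolipoproteins that travel on lipoprotein particles. Lcn2 (lipocalin 2) binds bacterial iron carriers, and Ltf (lactoferrin) binds iron itself. Chil1 is a chitinase-like protein without enzyme activity, Cp (ceruloplasmin) is a copper-carrying ferroxidase, and Hp (haptoglobin) captures free hemoglobin. Clu (clusterin) is an extracellular chaperone, and Pigr carries polymeric immunoglobulins across epithelium.

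The 3 serum amyloid A genes lie together on chromosome 7 of GRCm38, the build the files use: Saa3 at chr7:46711998-46715700 and Saa1 at chr7:46740497-46742980 on the minus strand, and Saa2 at chr7:46751790-46754313 on the plus strand. Lcn2 lies at chr2:32384633-32388252 on the minus strand, Ltf at chr9:111019271-111042767, Clu at chr14:65968483-65981547 and Hp, on the minus strand, at chr8:109575128-109579172. Chil1 (chr1:134182176-134190181), Pigr (chr1:130826684-130852249) and Cp (chr3:19957054-20009145) are on the plus strand, as are Ltf and Clu. The promoters of the serum amyloid A genes are shown because Saa1 and Saa2 moved together across cells and tumors, as given below. They are RefSeq windows of 300 bases on GRCm38.p6, from 250 bases before to 50 after the start of transcription, with the letters of the C/EBP motif TTGCNNAA, on either strand, in capitals. The windows are chr7:46742931-46743230 for Saa1, chr7:46751583-46751882 for Saa2 and chr7:46715627-46715926 for Saa3.
Saa1: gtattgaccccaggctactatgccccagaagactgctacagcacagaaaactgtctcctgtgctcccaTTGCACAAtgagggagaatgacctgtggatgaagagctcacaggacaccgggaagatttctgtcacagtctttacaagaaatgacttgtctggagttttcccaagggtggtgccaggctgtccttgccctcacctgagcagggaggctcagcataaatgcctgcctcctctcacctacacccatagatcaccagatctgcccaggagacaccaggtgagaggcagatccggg
Saa2: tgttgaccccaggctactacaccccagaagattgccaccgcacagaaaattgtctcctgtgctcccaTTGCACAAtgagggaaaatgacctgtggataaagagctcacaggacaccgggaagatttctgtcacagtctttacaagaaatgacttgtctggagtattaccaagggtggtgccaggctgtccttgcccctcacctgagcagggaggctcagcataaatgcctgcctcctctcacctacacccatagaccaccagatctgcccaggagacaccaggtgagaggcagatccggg
Saa3: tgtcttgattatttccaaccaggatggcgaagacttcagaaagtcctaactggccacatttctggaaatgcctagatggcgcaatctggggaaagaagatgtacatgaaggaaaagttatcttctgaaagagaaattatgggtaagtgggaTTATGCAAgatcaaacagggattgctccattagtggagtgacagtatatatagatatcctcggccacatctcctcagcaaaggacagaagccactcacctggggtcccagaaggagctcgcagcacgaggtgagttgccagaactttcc

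The Saa1 and Saa2 windows shared 287 of 300 bases in a global alignment, whereas Saa1 and Saa3 shared 165. The C/EBP letters stood at 182 bases before the start in Saa1, 183 in Saa2 and 99 in Saa3. The same letters were found in 6 of the 8 genes with a promoter sequence (Saa1, Saa2, Saa3, Lcn2, Ltf and 1 of the 2 starts of Cp) and in 10.8% of 32851 promoters. An NF-kB motif of 10 letters was found in none of these 8 genes and in 0.411% of promoters, and a STAT motif, TTCNNNGAA, in 1 of them (Pigr) and in 8.30% of promoters. These are matches of letters only. A gene was counted if any of its starts matched, whereas the percentages are of single promoter windows. The nearly identical Saa1 and Saa2 windows were each counted. Because Saa1 and Saa2 are close copies, their reads could be confused. Of the 351 stretches of 50 bases in the last 400 bases of each transcript, where this method reads, 24 were shared between them, so most stretches belonged to 1 gene only. Saa3 shared 56 of 351 with transcripts of other genes and Pigr 18 of 303, so some of their reads may be uncertain. Lcn2, Ltf, Chil1, Cp, Clu and Hp shared 0.

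Of 30340 deposited cells, 19533 were kept, between 511 and 2341 per tumor, with median depths of 4043 to 10591 UMIs per cell. Of the cells left out, 10107 fell under the minimum of 2500 UMIs, 7126 of them from isotype and 2981 from B20-4.1.1 tumors. Cells were placed in classes by marker genes that include none of the 10 genes. This gave 13649 epithelial-like cells, between 77 and 1957 per tumor, 2954 lymphocyte-like, 1508 macrophage-like and 100 neutrophil-like cells. Outside the markers that set the gate, the milk casein Csn3 was seen in 99.1% of epithelial-like cells and Elf5, a factor of luminal progenitors, in 76.3%. No barcode was shared by tumors of 1 pool, and 94 were shared between pools.

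For 8 of the 10 genes, at least 95.1% of the UMIs came from epithelial-like cells, and Lcn2 was by far the most abundant. Epithelial-like cells held between 95.1% (Chil1) and 96.3% (Pigr) of all UMIs of Saa1, Saa2, Lcn2, Ltf, Chil1, Cp, Clu and Pigr. For Hp the share was 73.7%, and for Saa3 54.9%. Epithelial-like cells were 69.9% of the kept cells. They held 134227012 UMIs of all genes, against 13900542 in lymphocyte-like and 10985373 in macrophage-like cells. High shares are therefore partly a matter of their number and depth. A UMI is counted once for a transcript at its 3′ end, so levels are not divided by gene length here. Mean levels over the 15 tumors, in UMIs per 10000 UMIs of epithelial-like cells, were 90.6 ± 12.6 (SD, n = 15) for Lcn2, 17.2 ± 4.75 for Ltf and 10.7 ± 4.08 for Chil1. A middle group did not separate beyond its spread, with 6.38 ± 2.66 for Clu, 5.95 ± 0.980 for Cp, 5.70 ± 3.00 for Saa1 and 3.45 ± 2.07 for Saa2. Pigr stood lower, at 1.09 ± 0.408, and the least abundant were Hp at 0.354 ± 0.265 and Saa3 at 0.106 ± 0.114. The tumors did not overlap between Lcn2, whose lowest was 68.5, and any other gene, the highest being Ltf at 27.1.

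Lymphocyte-like cells served as the background for free RNA, which enters every droplet. The background was far from empty for Lcn2, since 47.3% of lymphocyte-like cells carried at least 1 Lcn2 UMI, against 99.2% of epithelial-like cells. After thinning to 2500 UMIs per cell the shares were 32.3% and 98.1%. The level told them apart more clearly, at 1.64 per 10000 UMIs in lymphocyte-like and 88.8 in epithelial-like cells (cells of all tumors summed). For the 8 genes held by epithelial-like cells, the lymphocyte-like level was a like fraction of the epithelial-like one in the same tumor, with medians from 1.31% for Clu to 2.73% for Pigr. Within tumors, all 10 genes were higher in epithelial-like than in lymphocyte-like cells by edgeR's quasi-likelihood test, as were 42.2% of the 12290 genes tested. The log2 fold changes ran from 4.76 ± 0.465 (SE, adjusted p = 3.35e-09) for Saa3 to 6.13 ± 0.173 (adjusted p = 1.48e-19) for Clu. The epithelial-like level was the higher one in 15 of 15 tumors for 9 of the genes and in 13 of 15 for Saa3, which had 4 UMIs in all lymphocyte-like cells. In isotype 1.1 Saa3 stood at 0.0389 in lymphocyte-like (1 UMI) and 0.0200 in epithelial-like cells, and in B20-4.1.1 2.3 at 0 in both.

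**Figure D1:**
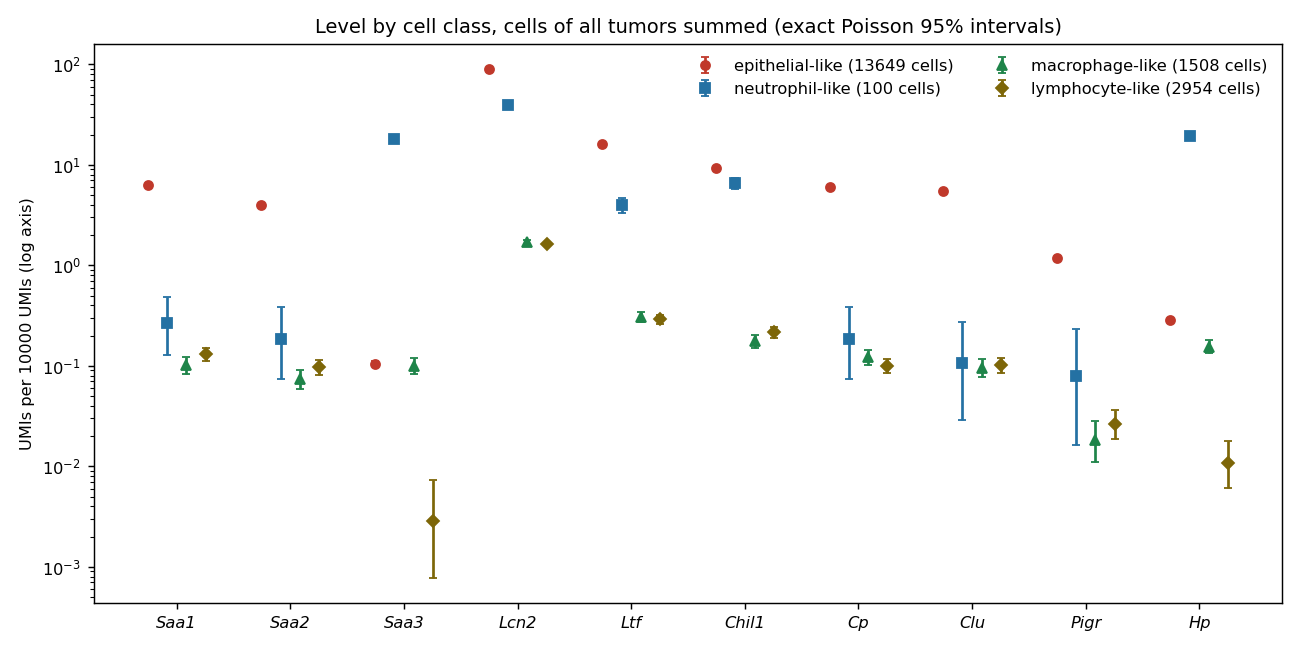
Level of each of the 10 genes (UMIs per 10000 UMIs, log axis) in epithelial-like, neutrophil-like, macrophage-like and lymphocyte-like cells, summed over all tumors, with exact Poisson 95% intervals as bars that cover counting error only. Lcn2 stands at 88.8 in epithelial-like and 1.64 in lymphocyte-like cells, whereas Saa3 and Hp stand highest in neutrophil-like cells, at 17.9 and 19.3 (1.85 and 23.5 without isotype pool 1).

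In neutrophil-like cells, Hp and Saa3 stood higher than in epithelium, Hp across pools and Saa3 almost only in isotype pool 1. In the 100 neutrophil-like cells, Hp stood at 19.3 per 10000 UMIs and Saa3 at 17.9, against 0.286 and 0.105 in epithelial-like cells (all tumors summed). Hp was found in 84% of the neutrophil-like cells and Saa3 in 22%, so Saa3 was held by a minority of them. Isotype pool 1 gave 67 of these cells and 654 of the 675 Saa3 UMIs, and the other 21 came from 1 cell of B20-4.1.1 2.2. Without that pool Saa3 stood at 1.85 and Hp at 23.5. Lcn2, a protein of neutrophil granules as well as of epithelium, stood at 39.0 (27.0 without isotype pool 1), Chil1 at 6.57 and Ltf, another granule protein, at 3.96. Ltf was seen in 20% of these cells. A single cell of isotype 2.3 held 57 of the 149 Ltf UMIs and 126 of the 1469 Lcn2 UMIs. Without isotype pool 1 that cell made up 57 of 64 and 126 of 307. The other 5 genes lay at 0.266 or below. Only 3 tumors, all of isotype pool 1, reached 20 neutrophil-like cells, so no test was made.

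With the minimum lowered to 1000 UMIs per cell, which kept more of these small cells, 5 tumors reached 20 neutrophil-like cells. Lcn2 stood at 40.5, 23.9 and 25.7 per 10000 UMIs in isotype tumors 1.1, 1.2 and 1.3, and at 7.21 and 11.8 in B20-4.1.1 tumors 1.1 and 1.2. Saa3 stood at 32.9, 27.9 and 30.2 in the isotype tumors and at 6.41 and 0.253 in the B20-4.1.1 tumors. Hp stood at 15.0, 15.1 and 16.4 against 19.9 and 15.4. Of the 8 genes with at least 20 UMIs in these tumors, 3 did not overlap between the groups (Lcn2, Saa3 and Ltf, all higher in isotype tumors), near the 31.1% of 3968 genes that did not overlap in either direction. Ltf stood at 4.41, 1.31 and 1.24 against 0.668 and 0.632. Saa3 was seen in 28.0% to 31.7% of the cells of the isotype tumors and in 15.6% and 4.88% of those of the B20-4.1.1 tumors. With 1 pool on each side and 32 and 41 cells in the B20-4.1.1 tumors, pool and treatment cannot be told apart and no test was made.

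In macrophage-like cells, the same pair stood above the background. Hp was higher than in lymphocyte-like cells of the same tumors by 3.14 ± 0.505 on the log2 scale (SE, adjusted p = 1.12e-05), and Saa3 by 3.09 ± 0.567 (adjusted p = 0.000113). They were the 2 genes called of the 8 tested, beside 32.7% of the 8986 genes tested. Lcn2 did not pass the test (-0.11 ± 0.0995, adjusted p = 0.322), nor did Saa1, Saa2, Ltf, Chil1 or Cp, and Clu and Pigr had too few counts. The Saa3 signal rested on few cells, since 10 cells held 92.7% of its 110 UMIs in this class and a single cell held 41. For Hp, 10 cells held 51.5% of 171 UMIs, and 54 of 1508 cells had any. The summed level of the 8 neutrophil markers in macrophage-like cells was between 0.324 and 1.22 per 10000 UMIs in isotype and between 0.203 and 0.566 in B20-4.1.1 tumors, and the part of neutrophil RNA in these values was not tested. Without isotype pool 1, Saa3 had too few counts to be tested, and Hp stood at 3.16 (adjusted p = 0.000344).

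The question of treatment was asked first in epithelial-like cells, where Clu, Hp and Ltf rose under B20-4.1.1. Clu was 1.79-fold, Hp 2.98-fold and Ltf 1.47-fold higher in the fit over 6 isotype and 9 B20-4.1.1 tumors. No gene of the 10 fell, and the other 7 did not pass the test. Thus 3 of 10 genes were called, beside 14.0% of the 12314 genes tested (894 higher and 834 lower). This call rested on treating the tumors of a pool as independent. In limma with a random effect of pool, none of the 10 was called, and 30 of all genes were called higher and 9 lower. With counts summed per pool 0 of the 10 and 0 of all genes were called. In each of these fits 2 of the 10 had an unadjusted p under 0.05. Without isotype pool 1, 0 of the 10 were called, and without isotype pool 2, 6 were (Clu, Hp, Lcn2, Ltf, Saa1 and Saa2).

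Clu, the chaperone, gave the clearest shift. The isotype tumors stood at a lowest of 3.63, a median of 4.40 and a highest of 5.40 UMIs per 10000 UMIs, and the B20-4.1.1 tumors at 5.02, 6.56 and 13.6. The groups overlapped by a single tumor on each side, B20-4.1.1 3.1 below isotype 2.2. The log2 fold change was 0.84 ± 0.193 (SE, edgeR adjusted p = 0.0102). The share of cells with a Clu UMI, thinned to 2500 UMIs, was 51.8% ± 5.58 (SD, n = 6) in isotype and 64.0% ± 5.30 (n = 9) in B20-4.1.1 tumors. Clu was highest in the 3 tumors of B20-4.1.1 pool 2, at 13.6, 9.85 and 9.01. These values come from 77, 505 and 162 epithelial-like cells. The largest cells held 141 of 1170, 473 of 6201 and 232 of 1603 Clu UMIs. Without isotype pool 1 the difference was 0.56, and the adjusted p rose to 0.176.

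Hp had the largest fold change of the 10 and a low level. The isotype tumors ranged from 0.0459 through a median of 0.180 to 0.233 UMIs per 10000 UMIs, and the B20-4.1.1 tumors from 0.135 through 0.398 to 0.951. Of the 9 B20-4.1.1 tumors, 8 lay above every isotype tumor, and B20-4.1.1 1.1 lay at 0.135. The margin was narrow for B20-4.1.1 1.3 and 3.1, at 0.242 and 0.248 against 0.233 in isotype 1.1. In thinned cells B20-4.1.1 1.3 stood at 0.149, below isotype 1.1 at 0.245. Single cells weighed in both groups, with 31 of 81 Hp UMIs in 1 cell of B20-4.1.1 1.3. The largest cell held 64 of 109 in B20-4.1.1 2.3 and 68 of 259 in isotype 2.1. The log2 fold change was 1.57 ± 0.377 (SE, adjusted p = 0.0122), and 0.0930 was the adjusted p without isotype pool 1. Since neutrophil-like cells carried Hp at 19.3 per 10000 UMIs, the 8 neutrophil markers were read in the same epithelial-like cells. All 8 had at least 1 UMI there, and their summed level was between 4.84 and 11.3 per 10000 UMIs in isotype and between 2.79 and 8.83 in B20-4.1.1 tumors, and G0s2 and S100a8 were the most abundant. In lymphocyte-like cells that level was between 0.198 and 2.756 in isotype and between 0.1075 and 4.071 in B20-4.1.1 tumors. Of the 3 markers with enough counts to be tested, none was called (S100a9 -1.90, G0s2 -0.82 and S100a8 0.68 on the log2 scale, adjusted p = 0.0619, 0.0709 and 0.131). Another list held 5 granule genes of immature neutrophils (Ngp, Camp, Elane, Mpo and Prtn3). Their summed level in epithelial-like cells was between 0.142 and 0.6083 in isotype tumors (median 0.2431). In B20-4.1.1 tumors it was between 0.2765 and 0.7211 (median 0.5496). The part of neutrophil RNA in the Hp difference was not tested.

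Ltf, the iron-binding protein, rose least of the called genes. Its levels ran from 11.5 through 12.6 to 19.3 UMIs per 10000 UMIs in isotype and from 14.3 through 17.6 to 27.1 in B20-4.1.1 tumors. The groups overlapped in the range of 14.3 to 19.3. The log2 fold change was 0.55 ± 0.177 (SE, adjusted p = 0.0456), close to the threshold of 0.05. It missed that threshold in 8 of 14 alternatives, with adjusted p between 0.0515 (mitochondrial limit of 10%) and 0.547 (sums per pool) there.

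**Figure D2:**
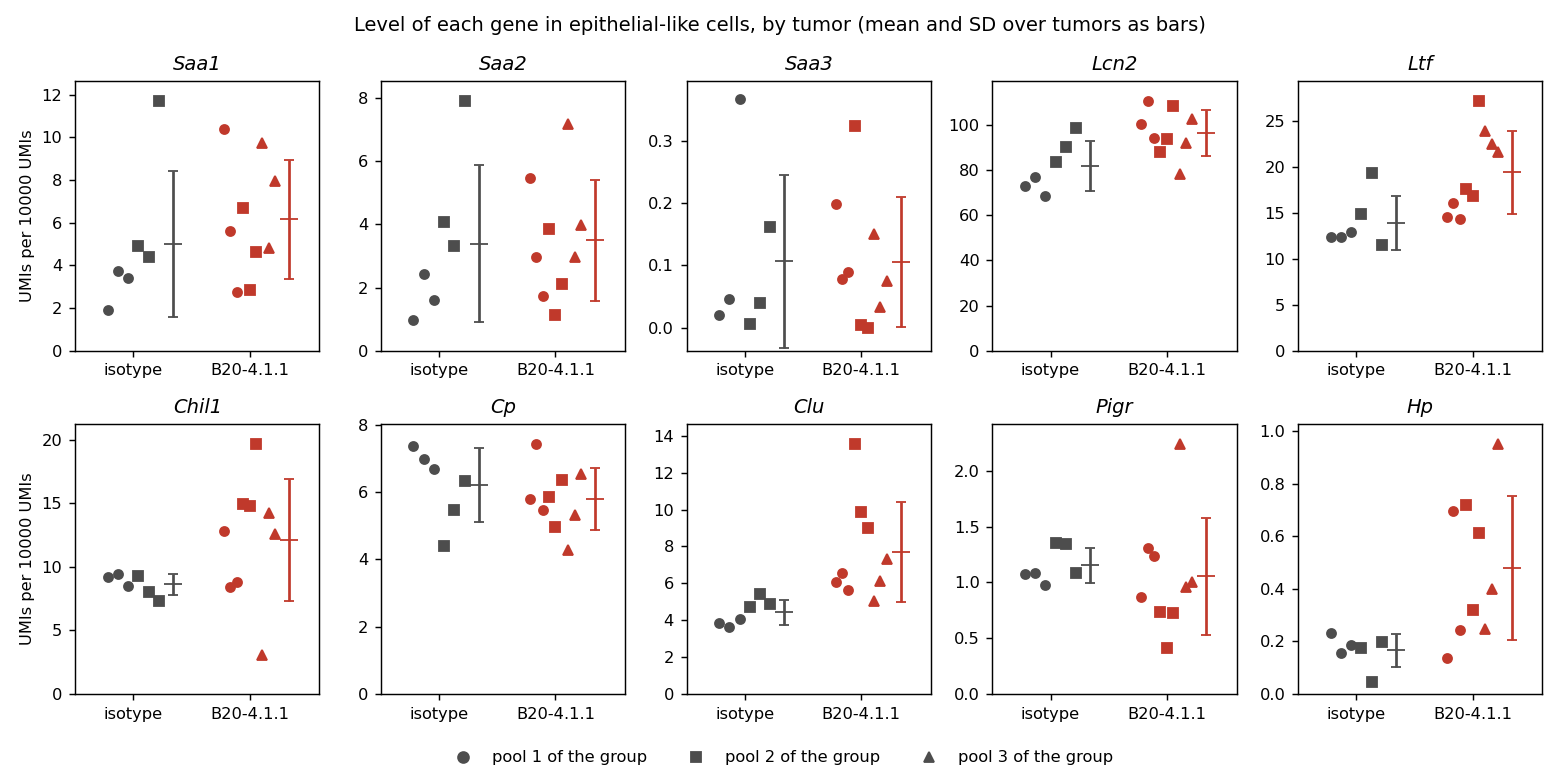
Level of each gene in epithelial-like cells (UMIs per 10000 UMIs), 1 point per tumor, with the shape giving the pool and the bar the mean and SD of 6 isotype or 9 B20-4.1.1 tumors. For Clu a single tumor of each group overlaps, at 5.02 and 5.40, whereas for Saa1, Saa2 and Cp the groups cover each other.

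Lcn2 and Chil1 did not pass the test over all pools, and each passed with 1 pool left out. Lcn2 had a lowest of 68.5, a median of 80.3 and a highest of 98.7 UMIs per 10000 UMIs in isotype tumors, and 78.3, 94.1 and 111 in B20-4.1.1 tumors. Its log2 difference was 0.30 ± 0.119 (SE, adjusted p = 0.1004). The 2 isotype pools differed, with 73.1, 77.2 and 68.5 in pool 1 and 83.4, 90.1 and 98.7 in pool 2. The difference was therefore 0.05 (adjusted p = 0.819) without isotype pool 1 and 0.60 (adjusted p = 0.000195) without isotype pool 2. Chil1 ranged from 7.28 to 9.45 in the isotype tumors, a narrow span. In B20-4.1.1 tumors it ranged from 3.04 to 19.7, with 6 of 9 above every isotype tumor and B20-4.1.1 3.1 below every one. Its log2 difference was 0.56 ± 0.251 (adjusted p = 0.136), and without B20-4.1.1 pool 3 it was called at 0.68 (adjusted p = 0.0322).

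Saa1 and Saa2 varied more between tumors of 1 group than between the groups. Saa1 had a lowest of 1.89, a median of 4.06 and a highest of 11.7 UMIs per 10000 UMIs in isotype tumors and 2.74, 5.61 and 10.4 in B20-4.1.1 tumors. Saa2 had 0.962, 2.88 and 7.91 in isotype and 1.12, 2.98 and 7.19 in B20-4.1.1 tumors. Isotype 2.3 was the highest isotype tumor for both genes, and B20-4.1.1 1.1 and 3.1 were the highest of their group for Saa1 and for Saa2. The log2 differences were 0.34 ± 0.375 for Saa1 (adjusted p = 0.565) and 0.08 ± 0.436 for Saa2 (adjusted p = 0.931). Both turned with the isotype pool left out, to -0.21 and -0.56 without pool 1 and to 1.24 and 1.28 without pool 2, where they were called (adjusted p = 0.0205 and 0.0424).

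Cp, Pigr and Saa3 gave differences near 0 that changed sign with the pools in the fit. Cp, the ferroxidase, ran from 4.41 to 7.36 UMIs per 10000 UMIs in isotype and from 4.29 to 7.42 in B20-4.1.1 tumors. Its log2 difference was -0.02 ± 0.109 (adjusted p = 0.933), the smallest error of the 10. Pigr ran from 0.974 to 1.35 and from 0.412 to 2.24, with a difference of -0.03 ± 0.266 (adjusted p = 0.966). Saa3 ran from 0.00672 to 0.366 and from 0 to 0.324, and its difference of -0.03 ± 0.709 (adjusted p = 0.985) had the widest error.

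**Figure D3:**
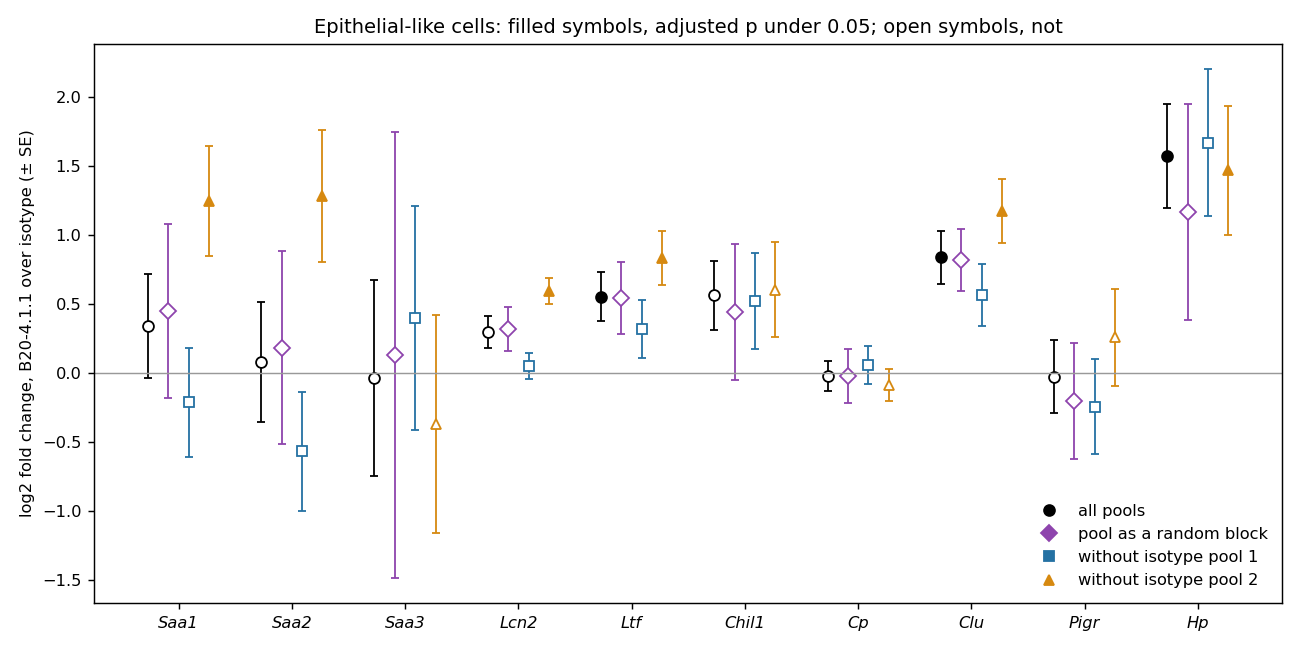
Log2 fold change of B20-4.1.1 over isotype in epithelial-like cells for each gene with its SE, over all pools, with the pool as a random block, and without isotype pool 1 or 2 (filled, adjusted p under 0.05). Hp lies between 1.16 and 1.67 in all 4 fits, whereas Saa1 moves from -0.21 without isotype pool 1 to 1.24 without isotype pool 2.

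Markers of cell type and state moved in the same epithelial-like cells. Of the 9 epithelial markers that set the gate, 7 were called, all higher in B20-4.1.1 tumors, beside 14.0% of all genes, and the summed level of the 9 was between 61.8 and 81.2 per 10000 UMIs in isotype and between 81.6 and 120 in B20-4.1.1 tumors. Among the 5 listed basal genes, the keratins Krt14 (1.42 ± 0.205) and Krt17 (2.63 ± 0.451 on the log2 scale) rose as well. Among the 5 listed cycling genes, Mki67 fell by 1.02. The other genes of these lists are not given here, so the values do not describe the lists as a whole. Of 7 T-cell markers tested, 5 were called higher in epithelial-like cells, beside the same 14.0%. In the fits with a random effect of pool and with sums per pool, 0 of these epithelial, basal, T-cell and cycling markers were called. The summed level of the 8 listed T-cell markers, all of them with a UMI, was between 0.0705 and 0.138 per 10000 UMIs in isotype and between 0.110 and 0.376 in B20-4.1.1 tumors, against 53.2 to 79.2 in lymphocyte-like cells. The part of these shifts in the values of Clu, Hp and Ltf was not tested.

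In macrophage-like and lymphocyte-like cells no treatment difference was called for any of the 10 genes. In macrophage-like cells 4 genes had enough counts to be tested, and 0 of 4 passed, beside 0.0580% of 6893 genes; 2 had an unadjusted p under 0.05. Lcn2 was -0.57 ± 0.230 (SE, adjusted p = 0.398), Ltf -0.69 ± 0.329 (adjusted p = 0.494), Hp -0.28 ± 0.571 and Chil1 -0.14 ± 0.299 on the log2 scale. The Lcn2 levels were 1.27 to 3.27 per 10000 UMIs in isotype and 0.647 to 1.66 in B20-4.1.1 tumors, with overlap. B20-4.1.1 1.3, with 17 macrophage-like cells, was left out. In lymphocyte-like cells, 0 of 3 genes tested passed, beside 0.0160% of 6259 genes, and 0 had an unadjusted p under 0.05. There Lcn2 was -0.17 ± 0.230, Chil1 -0.32 ± 0.397 and Ltf 0.30 ± 0.261. DESeq2 called none of the 10 in either class. Without isotype pool 2, 4 were called in macrophage-like cells, with Cp at -2.42, Ltf at -1.11, Lcn2 at -0.88 and Saa2 at 3.58, whereas without isotype pool 1 none was.

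The genes differed in how they were spread over the cells. Lcn2 was nearly everywhere, in 98.1% of epithelial-like cells thinned to 2500 UMIs, and the 10% of cells with most Lcn2 held 28.7% of its UMIs (median over 15 tumors). Cp and Clu were seen in 59.4% and 55.9% of cells, and their top 10% held 43.7% and 46.7%. Chil1 and Ltf were more uneven, with 58.0% and 67.9% in the top 10% of cells. Pigr and Saa1 were seen in like shares of cells, 17.6% and 17.7%, but the top 10% held 74.1% of the UMIs of Pigr and 93.8% of those of Saa1. Before thinning, the largest cells held 71 and 1181 UMIs of them. Saa2 was seen in 11.9% of cells, and its largest cell held 754 UMIs before thinning. Hp and Saa3 were rarer still, in 2.51% and 0.777% of cells. For Saa2, Hp and Saa3 the top 10% held all UMIs in the median tumor. That follows whenever a gene is seen in no more than 10% of a tumor's cells, so it adds nothing to those shares. Saa1 and Saa2, though close in mean level to Cp and Clu, thus came from a small share of very high cells.

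Saa1 and Saa2 were found in the same cells. Among epithelial-like cells with a Saa1 UMI, 46.9% also had a Saa2 UMI, against 3.64% of cells without Saa1, and the share was higher in 14 of 14 tumors. Saa3 followed weakly, in 2.62% against 0.249% of cells. The ratio of Saa1 to Saa2 UMIs was 1.74 in the median tumor and between 1.21 and 2.55 in all 15. Across the 15 tumors the 2 genes had a Spearman rho of 0.93, the highest among the 10, where depth and pool are shared by both. Among the 8 listed neutrophil markers, S100a8, a subunit of the antimicrobial protein calprotectin, was seen in 23.5% of cells with Saa1. It was seen in 11.0% of the other cells, and was higher with Saa1 in 14 of 15 tumors. Csn3, from the 4 listed luminal progenitor genes, was seen in 99.2% against 95.2%, again higher in 14 of 15. The other genes of these lists are not given here, so the values do not describe the lists as a whole.

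Cells with Lcn2 had Chil1 in 46.6% against 8.74% of the few cells without it, and Cp in 58.8% against 21.9%, each in 7 of 7 tumors with enough cells of both kinds. Ltf, Clu and Cp were also found together. Cells with Ltf had Clu in 72.0% against 49.5% of cells without, and Cp in 70.7% against 49.4%, each in 15 of 15 tumors. Cells with Cp likewise had Clu in 67.2% against 47.6%. Among the 4 listed luminal progenitor genes, Kit, Elf5 and Aldh1a3 were seen more often in the cells with Ltf in 15 of 15 tumors. Kit was in 49.5% against 35.8% and Aldh1a3 in 8.64% against 1.91%, and Csn3 is not given here. Mki67, 1 of the 5 listed cycling genes, was seen in 1.53% of cells with Clu and 4.10% of cells without, and was higher with Clu in 1 of 15 tumors. Chil1 and Pigr were found together less often, since Pigr was in 12.8% of cells with Chil1 and 20.4% of cells without, and higher with Chil1 in 1 of 15 tumors.

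**Figure D4:**
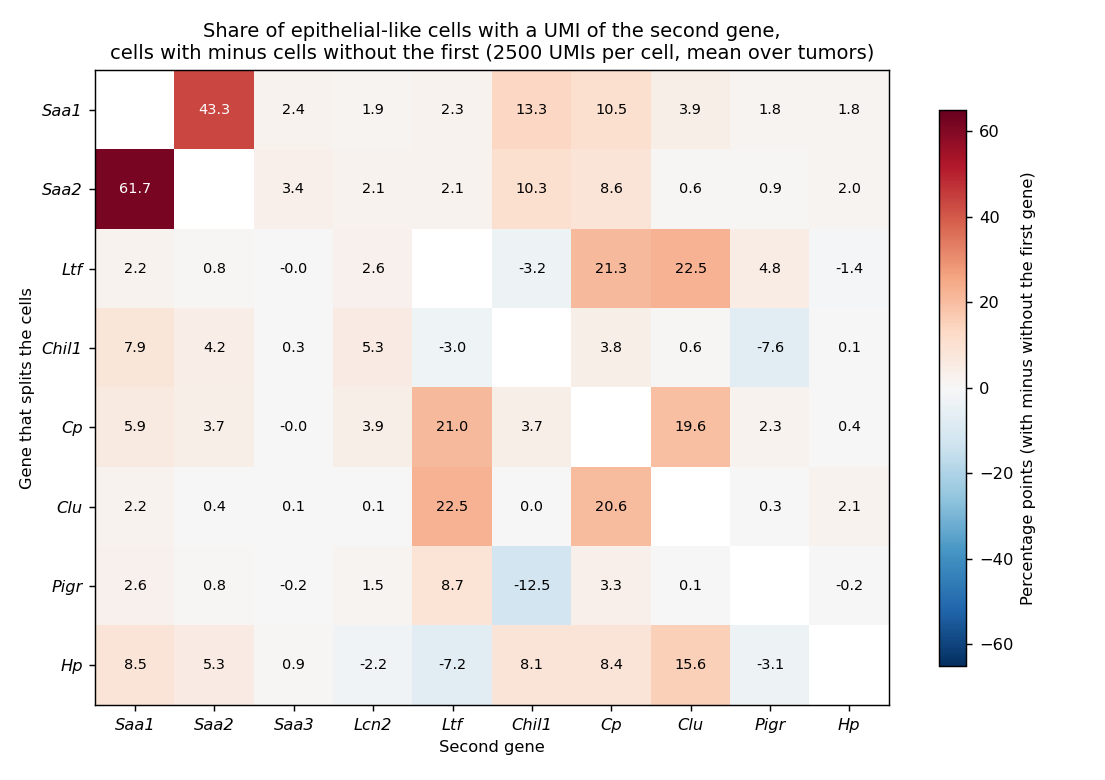
Difference, in percentage points, in the share of epithelial-like cells with a UMI of the second gene (columns) between cells with and without the first gene (rows), at 2500 UMIs per cell and as the mean over tumors. Saa1 and Saa2 (43.3 and 61.7 points) and the set of Ltf, Clu and Cp (19.6 to 22.5 points) have the largest differences in the rows drawn, which leave out Lcn2 and Saa3, and Chil1 and Pigr are below 0 (-7.61 and -12.5).

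The 3 markers of hormone-sensing epithelium, Pgr, Esr1 and Prlr, were seen more often in cells with Hp and in the few cells without Lcn2. All tumors together held 342 Hp cells, and the shares are means over the 11 tumors with at least 10 of them. The progesterone receptor Pgr was seen in 8.57% of Hp cells against 0.494% of other epithelial-like cells, higher in 8 of the 11 tumors. Esr1 was seen in 6.58% against 1.18% (8 of 11) and Prlr in 33.3% against 25.1% (7 of 11). Csn3 was seen in 89.0% of Hp cells against 96.6% of the others. Among cells without Lcn2, Pgr was in 17.6% against 0.259% of cells with it, Esr1 in 10.1% against 1.14% and Prlr in 43.1% against 25.5%, higher without Lcn2 in 8, 6 and 8 of 9 tumors. Krt14, the basal keratin, was in 15.96% of Hp cells against 7.85% of the others. In the fit between treatments, Pgr stood at 1.17 ± 0.938 and Esr1 at 0.30 ± 0.301 on the log2 scale, neither called (adjusted p = 0.406 and 0.519).

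The genes around the 10 were read in the same epithelial-like fit from lists of cytokines, receptors and relay genes, other defense genes, metal handling and receptors of the 10 proteins, of which 64 genes had enough counts. In all, 12 of these were called, beside 14.0% of all genes, and 0 with a random effect of pool or with sums per pool. The relay genes (3 of 21) and metal genes (2 of 13) were called at about the share of all genes. The inducing cytokines were scarce in epithelium, since 4 of 10 were tested (Il1b, Tnf, Lif and Clcf1) and none was called. Of 21 receptors and relay genes, Cebpd, a C/EBP factor of the acute-phase response, rose by 0.52 ± 0.144 on the log2 scale (adjusted p = 0.0251), and Tnfrsf1a, a TNF receptor, by 0.38 ± 0.124 (adjusted p = 0.0477). Nfkbiz, a nuclear partner of NF-kB, fell by 0.70 (adjusted p = 0.0112). The other 18 did not pass. Among them, picked after their values were seen, were Stat3 (0.08 ± 0.0907) and Cebpb (0.36 ± 0.124, adjusted p = 0.0595).

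Other acute-phase and defense genes held most of the calls, 7 of 17 tested and all higher. Slpi, a protease inhibitor of secretions, rose by 1.21 ± 0.311 (adjusted p = 0.0173). Itih4 rose by 0.94 ± 0.263, Cd14, the co-receptor for bacterial lipopolysaccharide, by 0.93 ± 0.205 and complement C3 by 0.82 ± 0.230. Lrg1, Lbp and Ceacam1 were the other called genes. Of 13 genes for iron, copper and heme handling, Hmox1, which degrades heme, rose by 0.66 ± 0.182 (adjusted p = 0.0237), and Steap3, an iron reductase, by 0.63 ± 0.165. Of 9 tested receptors of the 10 proteins none was called. The count over all lists was 3 without isotype pool 1, 33 without isotype pool 2, and 7 and 6 without B20-4.1.1 pool 1 or 2.

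The genes whose levels ran most like those of the 10 across the 15 tumors were found by Spearman's rho among 4245 abundant genes in epithelial-like cells; Saa3 was too low for this. Clu ran most like Anxa2, Litaf (both rho = 0.96) and Tnfrsf1a (0.95). Ltf ran most like Cstb (0.95), Lcn2 like Lurap1l (0.90), Chil1 like Fxyd3 (0.91), Hp like the interferon-induced Isg15 (0.86) and Pigr like Tex261 (0.94). For Saa1 and Saa2 the nearest was the same gene, 2010320M18Rik (0.84 and 0.89), and Cp had the weakest neighbors, led by Tmem87a (0.79). Among the 10 genes, Clu went with Chil1 (0.77), Ltf (0.70) and Hp (0.68), and Chil1 against Pigr (-0.54). These are descriptions over 15 tumors that share 5 pools and 2 treatments.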

How the data were processed

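Tumors were dissociated by the authors, viable cells were sorted, and 3 tumors per pool were tagged with lipid oligos before droplet capture (10x 3′ chemistry). The authors deposited raw UMI counts per gene and cell, made with Cell Ranger 6.1.2 (file headers) on mm10; the submitters' processing notes also name bcl2fastq and Seurat 4.3.0. Cells with 2500 to 27500 UMIs and at most 20% mitochondrial UMIs were kept. No doublet caller was run, but 759 cells that met more than 1 class gate were left out, and 462 met none. A gate needed at least 40% of a class's markers, and at least 3. Levels are summed UMIs of a class per 10000 UMIs, by tumor, and shares of cells were also taken after thinning each cell to 2500 UMIs. Intervals at 95% cover counting error only.

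UMI counts were summed per tumor and class (at least 20 cells) and tested with edgeR 4.0.16 (quasi-likelihood, TMM, R 4.3.3) over all genes that passed the filter on low counts, with Benjamini-Hochberg adjustment and a threshold of 0.05. Treatments were compared without covariates, and classes with tumor as a term. Per the labels, the tumors of 1 pool came from separate mice, but their deviations from the group means correlated in epithelial-like cells (0.535), so p-values over tumors may be too small. Alternatives were limma 3.58.1 with pool as a random block, sums per pool, DESeq2 1.42.0, its size factors, no filter, thinned cells, a minimum of 1000 UMIs, a mitochondrial limit of 10%, Leiden clusters (scanpy 1.11.5) in place of gates, and each pool left out. Levels in neutrophil-like cells without isotype pool 1 were added after seeing the data. Only the edgeR fit was tried on simulated counts. These were independent between tumors, so that trial does not cover the correlation within pools. Gene positions are from GENCODE and promoters from a RefSeq table in which 8 of the 10 genes were matched. Named are the 10 genes, up to 4 called genes per list and direction, listed cell markers, and for each gene the most similar genes by rho. The genes and lists were chosen with earlier results of these data known.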

Additional observations from a re-analysis of the deposited data

Results flagged for a closer look

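In 36 sets of tumors (1 gene, class and treatment each) the highest and lowest tumor were checked against the others. A tumor lay far from the rest in 4 of them. The rule gives about 1 in 20 by chance for normally distributed values. Whether these levels are so distributed was not tested. Saa1 in epithelial-like cells stood at 11.7 UMIs per 10000 UMIs in isotype 2.3, with the next isotype tumor at 4.93. Pigr in epithelial-like cells stood at 2.24 in B20-4.1.1 3.1, with the next tumor of its group at 1.31. Saa3 in macrophage-like cells stood at 0.146 in B20-4.1.1 3.3 (13 UMIs in 131 cells) against 0.0472 in the next. Ltf in lymphocyte-like cells stood at 0.469 in isotype 1.3 (16 UMIs in 68 cells) against 0.272 in the next.

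Neutrophil-like cells entered no test, and 5 of the genes had a 95% Poisson interval there that lay wholly above the one in lymphocyte-like cells; the intervals of the other 5 overlapped. The 5 that lay above were Lcn2 (39.0 against 1.64 UMIs per 10000 UMIs), Hp (19.3 against 0.0108), Saa3 (17.9 against 0.00288, and 1.85 without isotype pool 1), Chil1 (6.57 against 0.215) and Ltf (3.96 against 0.290). These intervals cover counting error only, not the spread between cells or tumors. For Ltf, a single cell of isotype 2.3 held 57 of the 149 UMIs.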

How the results depend on the processing

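Among the refitted log2 fold changes of the 10 genes, 347 kept their direction and side of the threshold, 48 changed sign, 14 lost and 8 gained a call. Of 3 genes called in epithelial-like cells, 0 were called with the pool as a random block or with sums per pool, and 0 to 6 with 1 pool left out. Of 12 called pathway genes, 0 were called in either of those fits, and 3 to 33 with 1 pool left out. In macrophage-like cells, where 0 genes were called, 1 was called without a filter and 0 to 4 with 1 pool left out. Of 2 genes higher in macrophage-like than lymphocyte-like cells, 1 was called in thinned cells, where Saa3 had too few counts, and 1 to 2 with 1 pool left out. The cause of the other changes was not tested. No paired analysis was possible because replicate numbers only name the pools and each pool holds 1 treatment.

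These log2 fold changes changed sign. In epithelial-like cells (B20-4.1.1 over isotype), Saa2 was -0.0062 with sums per pool, Saa3 was 0.080 with DESeq2, 0.076 with clusters and 0.13 with the pool as a random block, and Pigr was 0.066 in thinned cells and 0.015 at the mitochondrial limit of 10%. With 1 pool left out, Saa1 ran from -0.21 to 1.25, Saa2 from -0.56 to 1.28, Saa3 from -0.37 to 0.40, Cp from -0.088 to 0.058 and Pigr from -0.33 to 0.26. In macrophage-like cells, clusters gave 0.27 for Lcn2, 1.151 for Ltf and 0.78 for Chil1, and the mitochondrial limit of 10% gave 0.054 for Chil1. With 1 pool left out, Ltf ran from -1.11 to 0.22, Chil1 from -0.42 to 0.42 and Hp from -0.55 to 0.27. In lymphocyte-like cells, Lcn2 was 0.36 with clusters, 0.0086 with sums per pool and -0.45 to 0.095 with 1 pool left out, Ltf was -0.039 at 1000 UMIs, and Chil1 was 0.65 with clusters and 0.060 with the pool as a random block. For macrophage-like against lymphocyte-like cells, Saa1 was -0.017 with clusters, -0.063 at 1000 UMIs and -0.11 to 0.39 with 1 pool left out, and Saa2 was 0.055 with clusters and -0.29 to 0.070 with 1 pool left out. There, thinned cells gave 0.083 for Lcn2 and 0.21 for Ltf, Ltf was also 0.087 at 1000 UMIs and 0.010 without a filter, and with 1 pool left out Ltf ran from -0.37 to 0.15 and Cp from -0.20 to 0.12. Depth limits Saa3 and Hp, with 1414 and 3838 UMIs in all epithelial-like cells.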
